A study of Sus scrofa with 20 samples.

Results

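In the deposited isoform table of pig backfat, 50449 of 63418 isoforms had no entry in the column for the nearest reference transcript. The isoforms described here are the 16875 of these that reached an FPKM (read pairs relative to transcript length and library size) of 1 or more in at least 10 of the 20 libraries. They are called unmatched isoforms. The 8755 isoforms that met the same FPKM threshold and had a nearest reference transcript listed are called matched isoforms, and are the only comparison. The FPKM values chose both classes, so abundance, spread and share of FPKM are given as description, with no test.

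Backfat, the subcutaneous fat of the back, came from 10 female and 10 castrated male pigs of the Italian Large White breed, kept in 1 environment on 1 diet and weighing 150 to 160 kg. Females were 244 ± 5.64 days old (SD, n = 10, range 235 to 250) and castrated males 240 ± 4.53 days (SD, n = 10, range 233 to 249). Each animal gave 1 library of poly(A)-selected RNA, read as paired 100 bp ends, and there were no entire males. Numbers within a sex follow the order of the samples and pair no animals.

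Transcript assemblers such as Cufflinks join overlapping reads into transcript models and estimate the abundance of each model by dividing reads among the models that could have produced them. A model can match a known transcript, be another splice form of a known gene, or lie where no gene is annotated. Where several models overlap, most reads fit more than 1 of them, so the abundance of a single isoform is an inferred quantity, whereas the sum over a locus is closer to what was read. White fat cells build and hold triglyceride, and the tissue around them is rich in collagen. Which assembly rule left the nearest reference column empty is not given in the sources used here.

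Libraries held 25754778 to 51248122 counted reads (median 36922247). No 2 of the 190 library pairs held identical values. Of 10 adipocyte markers, 6 had a locus by symbol, and PPARG, the nuclear receptor that drives adipocyte differentiation, stood at 169 to 436 CPM (counts scaled to library size). ADIPOQ, FABP4, LPL and LEP matched no locus by symbol and were not analysed here. ACTA1, the skeletal muscle actin and the only 1 of 5 skeletal muscle markers with a locus, was at 0 to 4.06 CPM. Of 6 macrophage markers 5 had a locus, CD68 at 97.1 to 233 CPM. The other macrophage markers ranged more widely: C1QA 23.0 to 441, CSF1R 13.2 to 127, MSR1 4.94 to 130 and TYROBP 6.25 to 56.2 CPM. HBB, a blood marker, was at 18.2 to 702 CPM and KRT10, a skin marker, at 9.71 to 18.6 CPM. The library labelled female 10 carried the pattern of castrated males at the loci that separate the sexes, and the library labelled castrated male 10 that of females. Both names therefore mean only the label, and the sex differences that rest on them are given with and without them. The library labelled castrated male 1 held the lowest share of mitochondrially encoded FPKM and the lowest FPKM of 8 of 12 unmatched isoforms of fat synthesis genes. Values for the sex and age comparisons are also given without it.

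An empty reference entry did not mean an unannotated place. Isoforms were assigned to Cufflinks loci by finding neighbouring isoforms whose FPKM summed to the locus FPKM in all 20 libraries, which placed 15866 of the 16875 unmatched isoforms. Of all unmatched isoforms, 10351 (61.3%) lay at a locus with an Ensembl gene identifier where another isoform had a reference transcript listed. A further 1999 (11.8%) lay at a locus with an identifier and no reference transcript listed. A further 3516 (20.8%) lay at a locus with no identifier, and 1009 (5.98%) could not be placed. The placed unmatched isoforms covered 9452 loci, of which 5103 held no matched isoform above the threshold. As many as 11 unmatched isoforms sat at 1 locus, XLOC_024849, which spans PAN2, a subunit of the poly(A) nuclease, and CNPY2.

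Unmatched isoforms were more numerous but individually less abundant. The median of their mean FPKM was 3.08 (quartiles 1.73 and 7.17), against 6.66 (2.80 and 17.9) for matched isoforms. Mean FPKM reached 100 or more in 250 unmatched isoforms (1.48%) and in 481 matched isoforms (5.49%). FPKM of 1 or more in all 20 libraries was reached by 8477 unmatched (50.2%) and 6451 matched isoforms (73.7%). An FPKM under 0.1 in at least 1 library was seen in 3381 unmatched (20.0%) and 831 matched isoforms (9.49%). Within the unmatched isoforms the place made little difference to the level: the medians were 3.14 at loci with an identifier and a listed reference, 2.81 at loci with an identifier alone, 3.18 at loci with no identifier and 2.84 for isoforms that could not be placed.

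Together the unmatched isoforms held 28.2 ± 2.81% (SD, n = 20) of all FPKM, and the matched isoforms 69.9 ± 2.87%. The unmatched share was lowest, at 20.6%, in the library labelled castrated male 10, had a median of 29.0%, and was highest, at 31.7%, in female 9. It was 28.3 ± 2.27% in females and 28.2 ± 3.39% in castrated males (SD, n = 10 each), so the labelled sexes overlapped almost entirely. Without both libraries numbered 10 the share was 28.8%.

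The share moved opposite to the mitochondrially encoded transcripts. Loci of these genes, which encode subunits of the respiratory chain and ATP synthase, held 29.4 ± 7.18% of FPKM (SD, n = 20), with castrated male 1 lowest at 17.7% and highest, at 46.1%, the library labelled castrated male 10. No unmatched isoform lay at any of the 13 mitochondrially encoded genes. With those loci left out of the total, unmatched isoforms held 39.98 ± 1.12% (SD, n = 20), with castrated male 1 lowest at 37.6% and female 7 highest at 42.3%. The matched isoforms then held 57.4%. The SD between animals thus fell from 2.81 to 1.12 percentage points once a group of transcripts without unmatched isoforms was removed from the total. The shares of 1 library sum to 100%, so this opposite movement is in part built into the measure.

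**Figure D1:**
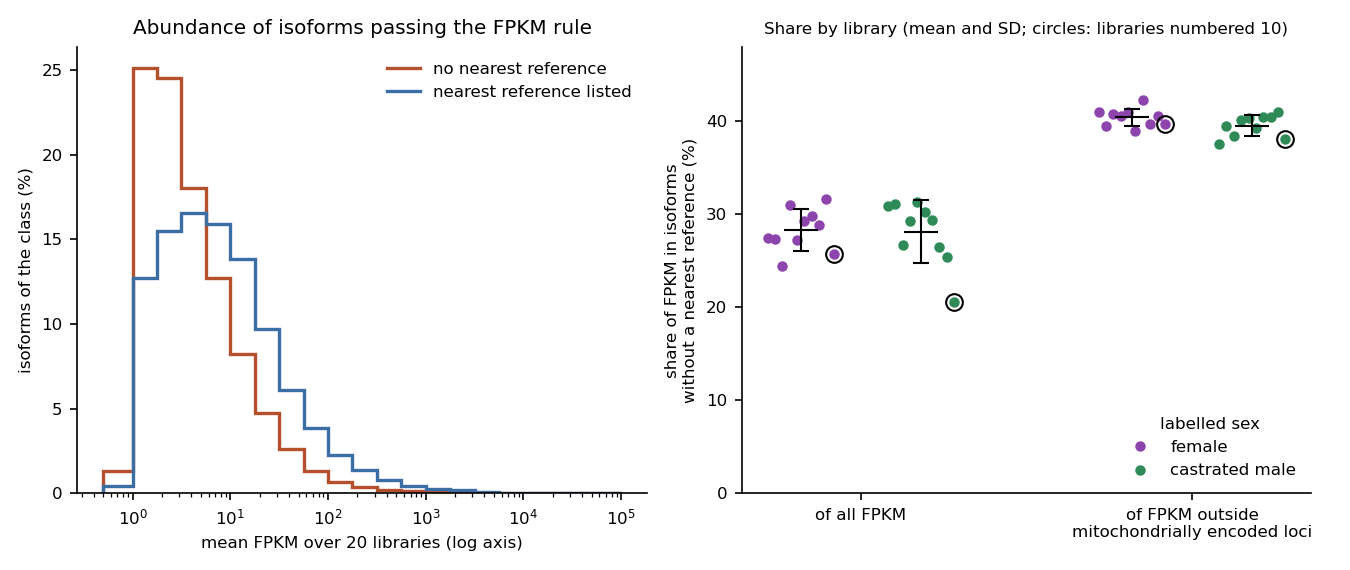
Left, mean FPKM over 20 libraries on a log axis against the percentage of isoforms of each class, for isoforms without (orange) and with (blue) a nearest reference transcript. Right, the share of FPKM in isoforms without a nearest reference in each library, of all FPKM and of FPKM outside mitochondrially encoded loci; points are libraries by labelled sex, black marks the mean and SD, and circles mark the libraries numbered 10. The spread narrows from 20.6 to 31.7% on the left to 37.6 to 42.3% on the right.

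Unmatched FPKM was spread over many isoforms. The 10 most abundant unmatched isoforms held 10.18% of the FPKM of their class, and 387 isoforms were needed to reach 50%. Among matched isoforms the 10 most abundant held 40.1%, and 26 reached 50%. The 3 most abundant matched isoforms, at means of 41923, 39777 and 38764 FPKM, all belonged to the locus of ATP8, ATP6 and COX3.

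The most abundant unmatched isoform was TCONS_00069004, 1 of 4 isoforms at XLOC_026502, where it made up 83.7% of the locus FPKM. The locus carries 2 Ensembl identifiers, 1 of them CDH15, a muscle cadherin, and the files do not say which identifier the isoform belongs to. Its FPKM was 781 in castrated male 9, had a median of 2430, and reached 19449 in female 5, with a mean of 4375 ± 5115 (SD, n = 20). Females 5, 1 and 7 and castrated male 8 stood far above the other libraries, and the sexes overlapped. The reads counted at the locus moved with it, at 11139 ± 12683 CPM (SD, n = 20), with r = 0.97 between log2 FPKM and log2 CPM over the 20 libraries. By correlation of log2 FPKM over the same libraries, the 3 isoforms most like it were TCONS_00072763 (r = 0.97), TCONS_00078252 (r = 0.75) and TCONS_00005945 (r = 0.72). The first of these was itself among the 10 most abundant, from 288 in castrated male 9 through a median of 1004 to 5223 FPKM in female 1, and could not be placed at a locus.

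The other abundant unmatched isoforms were steadier. TCONS_00011639, the only isoform of XLOC_004491, a locus with no identifier, ran from 2090 in female 1 through a median of 2732 to 4041 FPKM in castrated male 5. TCONS_00090547, at the locus of ENSSSCG00000019350, ran from 1588 to 3526 FPKM with a median of 2277, and both libraries numbered 10 were above all 18 others. TCONS_00025782, the only isoform of XLOC_010031, ran from 895 to 4131 FPKM with a median of 2157. In that isoform the library labelled female 10 was the highest and the library labelled castrated male 10 the second lowest. TCONS_00095104 at XLOC_036579 ran from 1026 in castrated male 1 through a median of 1867 to 3338 FPKM in female 7. TCONS_00004784 and TCONS_00007052, at loci with an Ensembl identifier and no symbol, had means of 1380 ± 306 and 1323 ± 236 FPKM (SD, n = 20).

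Several abundant unmatched isoforms belonged to well-known genes. TCONS_00033313 of COL3A1, the chain of type III collagen, was the 6th most abundant, at 586 in castrated male 1, a median of 1956 and 2791 FPKM in female 3. TCONS_00070200 of APOE, a lipoprotein ligand, made up 55.0% of its locus, at 561 in castrated male 2, a median of 1337 and 1812 FPKM in the library labelled castrated male 10. TCONS_00101702 of S100A6, a calcium-binding protein, made up 98.2% of its locus, at 597 in castrated male 7, a median of 1106 and 1955 FPKM in female 3.

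At 4349 loci an unmatched and a matched isoform both met the threshold. There the unmatched isoforms held a median of 39.6% of the locus FPKM (quartiles 21.9 and 61.2), and an unmatched isoform was the most abundant of the locus at 1503 (34.6%). They held over 90% at 124 of these loci (2.85%) and under 10% at 299 (6.88%). Over the 20 libraries the most abundant unmatched and the most abundant matched isoform of a locus had a median Pearson correlation of log2 FPKM of 0.10 (quartiles -0.26 and 0.44). The correlation was below 0 at 1829 loci (42.1%). The 2 isoforms share the reads of 1 locus, which the estimation divides between them, so this is a description and not a test of regulation.

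Genes of fat synthesis differed widely in how much of their FPKM was unmatched. Of 6 genes described, 5 had a locus and 4 had unmatched isoforms, 12 in all. ME1, the malic enzyme that supplies NADPH, had 92.2% of its FPKM in 3 unmatched isoforms, at 52.8% in the library labelled female 10, a median of 94.1% and 98.04% in female 3. ACACA, the acetyl-CoA carboxylase that commits carbon to fatty acids, had 76.5% in 6 unmatched isoforms, from 65.9% to 86.4% between libraries. ACLY, the source of cytosolic acetyl-CoA, had 28.8%. SCD, the desaturase that makes oleate, had 1.71% of a mean 2545 FPKM in its 1 unmatched isoform, and FASN, the fatty acid synthase, had none.

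Genes that store and release fat were just as uneven. Of 11 listed genes, 6 had a locus and 5 had unmatched isoforms, 14 in all; the PLIN4 locus was not among those whose isoforms could be placed. LIPE, the hormone-sensitive lipase, had 95.3% of the FPKM of its 3 loci in 7 unmatched isoforms, with a lowest value of 89.96% in castrated male 6 and a median of 96.3%. The largest, TCONS_00070077, was at 94.5 in female 3, a median of 201 and 283 FPKM in castrated male 4, and the sexes overlapped. GPAM, the first acyltransferase of triglyceride synthesis, had 64.6%. CIDEC, a lipid droplet protein, had 39.8% in TCONS_00023215, which ran from 78.7 in castrated male 1 through a median of 252 to 448 FPKM in female 1. PNPLA2, the adipose triglyceride lipase, had 25.7%, from 8.29% in castrated male 2 to 43.0% in the library labelled castrated male 10. PLIN1, which coats the droplet and shares its locus with PEX11A, had 13.4%.

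Among 7 adipocyte factors, 4 had a locus and 2 had 1 unmatched isoform each. CEBPA, a transcription factor of fat cell differentiation, had 34.9% of its FPKM in its unmatched isoform. RBP4, the retinol carrier, had 24.5%, and 0.0% in both libraries numbered 10. CFD, the adipocyte complement factor, had none.

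Matrix genes carried much unmatched FPKM: of 9 listed genes, 7 had a locus and 6 had unmatched isoforms, 22 in all, and these held over 50% of the FPKM of 5 genes. COL5A1, a chain of type V collagen, had 99.4% in 6 unmatched isoforms and no matched isoform above the threshold. COL6A3, a chain of type VI collagen, had 96.2%, at 35.1% in the library labelled female 10 and 97.6 to 99.5% in the other 19. Its leading isoform TCONS_00035760 was at 50.9 FPKM in that library, with a median of 587 and a highest value of 760 in female 3. DCN, the proteoglycan decorin, had 61.1%, COL3A1 55.0% and COL1A2, a chain of type I collagen, 54.1%. FN1, fibronectin, had 7.99%, and LUM, lumican, had none.

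**Figure D2:**
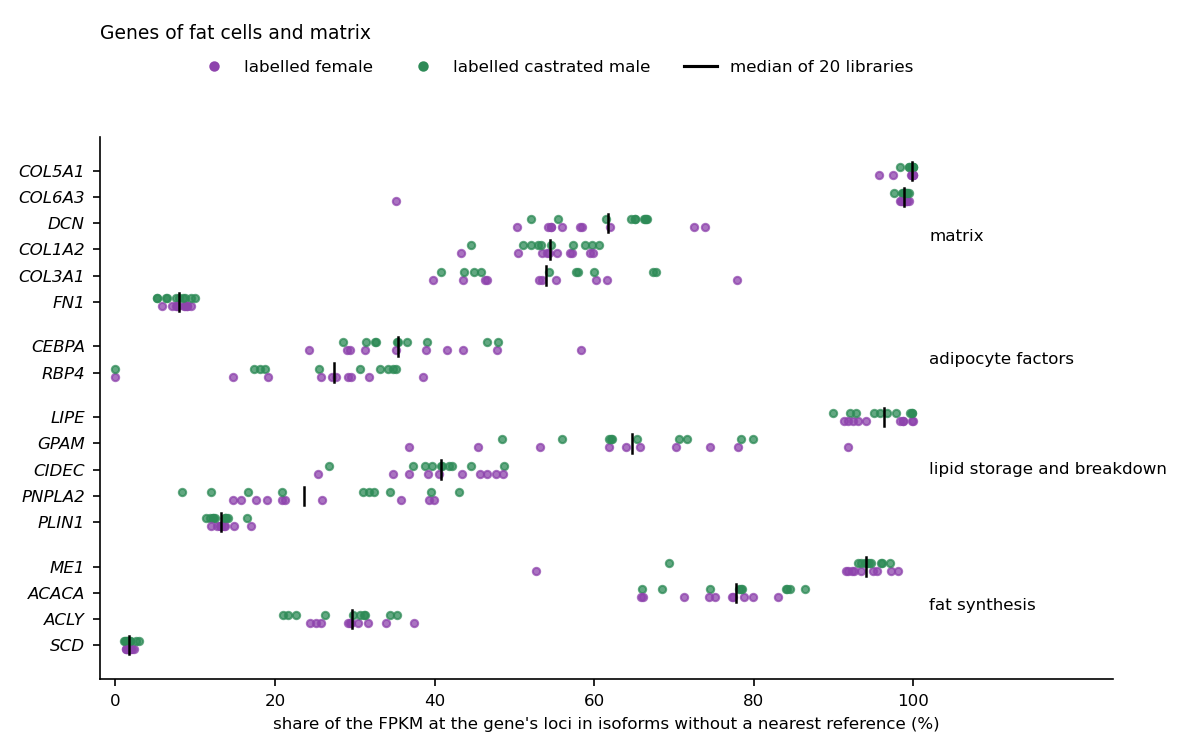
Share of the FPKM at each gene's loci that lies in isoforms without a nearest reference (x axis, %), for listed genes with at least 1 such isoform. Each point is a library, coloured by labelled sex, and the bar is the median of 20 libraries. Shares run from about 0 to 100% between genes, and COL6A3 and ME1 each show the library labelled female 10 far below the others, at 35.1 and 52.8%.

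Markers of other cells also had unmatched isoforms. CSF1R, the receptor of macrophage colony-stimulating factor, had 88.0% of its FPKM in 3 unmatched isoforms, from 50.2% in castrated male 6 to 100% in female 2. Its TCONS_00050724 ran from 1.32 in castrated male 2 through a median of 5.28 to 15.7 FPKM in castrated male 1. PDGFRA, a receptor of mesenchymal precursors, had 78.8% in 3 unmatched isoforms. C1QA, a complement subunit of macrophages, had 14.1%, at 63.1% in the library labelled female 10 and 0.04% in castrated male 2. The 6 macrophage markers held 9 unmatched isoforms, the 4 fibroblast markers 8, and the skin and endothelial markers 1 each. The skeletal muscle and blood markers held none, but few of them could be looked at. Only 1 of 5 muscle markers, ACTA1, and 2 of 3 blood markers, HBB and ALAS2, had a locus. ACTA1 had a mean of 0.55 FPKM, and the ALAS2 locus was not among those whose isoforms could be placed.

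Unmatched isoforms varied more between animals than matched ones. The SD of log2(FPKM + 0.1) between libraries, with the mean of each labelled sex removed, had a median of 0.55 in unmatched and 0.41 in matched isoforms. By place, the median SD was 0.58 at loci with an identifier and a listed reference, 0.51 at loci with an identifier alone, 0.48 at loci with no identifier and 0.62 for isoforms that could not be placed. Rarer isoforms varied more in both classes. Between 1 and 2 FPKM the medians were 0.64 and 0.62, while between 10 and 20 FPKM they were 0.44 and 0.33. In each of 8 abundance classes the unmatched median was higher, by 1.02 to 1.52 times.

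For isoforms alone at their locus, the gap was smaller within classes of counted reads than within classes of FPKM. An isoform that is alone at its locus takes all of the locus reads, so its FPKM can be set beside the reads counted there. There were 2702 such unmatched isoforms and 1257 such matched isoforms. The classes of mean count began at 10 reads, so isoforms with fewer, among them those with no read counted, are not in them. Within classes of mean FPKM the unmatched SD was 1.13 to 1.44 times the matched SD. Within classes of mean count it was 0.92 times between 10 and 30 reads, where only 38 matched isoforms fell, 1.03 between 30 and 100, 0.93 between 100 and 300, 1.14 between 300 and 1000, 1.23 between 1000 and 3000 and 1.07 above. The unmatched sole isoforms rested on fewer reads: the median of their mean count was 69.4 against 646, at medians of 3.17 and 11.3 FPKM, and 57.3% had a mean under 100 counts against 18.1%.

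**Figure D3:**
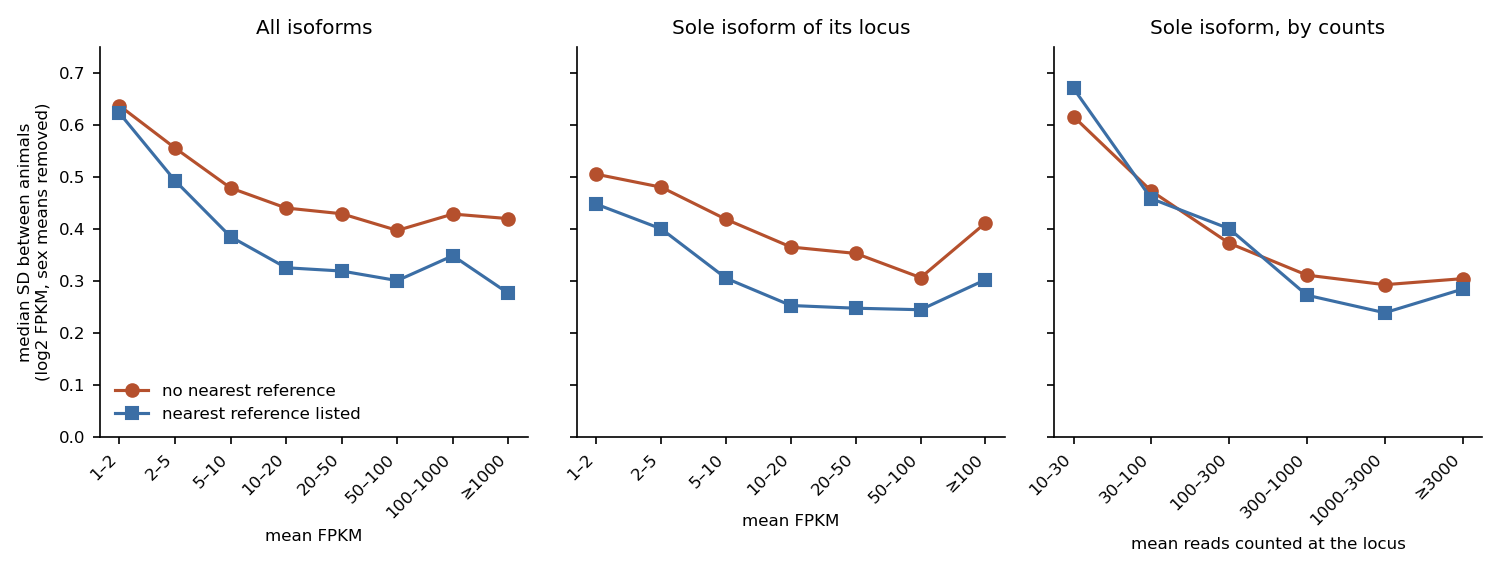
Median SD between animals of log2(FPKM + 0.1) (y axis) for isoforms without (orange circles) and with (blue squares) a nearest reference, in classes of mean FPKM for all isoforms and for sole isoforms of a locus, and in classes of mean counted reads, from 10 up, for sole isoforms. The orange line lies above the blue one in every class of FPKM; in classes of counted reads the lines cross.

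At loci of several isoforms, single isoforms varied more than the sum of the locus. For 13164 unmatched isoforms at such loci the median SD was 0.57, and that of their locus FPKM was 0.26. The isoform varied more than its locus in 12112 cases (92.0%). For 7043 matched isoforms the medians were 0.43 and 0.27, and 6139 (87.2%) varied more than their locus. An FPKM under 0.1 in at least 5 libraries occurred in 520 unmatched isoforms (3.08%) and 124 matched isoforms (1.42%). Of the 469 such unmatched isoforms at loci of several isoforms, 397 (84.6%) lay at a locus whose own SD was under 0.5, as did 90 of 106 such matched isoforms (84.9%).

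The 5 unmatched isoforms of largest SD among those with a mean of 10 FPKM or more show this on-and-off form. TCONS_00053963, at the locus of ENSSSCG00000008408, was listed at 0 in female 1, had a median of 45.9 and reached 198 FPKM in the library labelled female 10, with an SD of 4.92, while its locus ran from 222 to 474 FPKM with an SD of 0.27. It made up 0 to 78.3% of the locus. TCONS_00056547 of ANXA4, a membrane-binding annexin, ran from 0 in castrated male 2 through a median of 22.4 to 96.3 FPKM in castrated male 4, at a locus of 58.7 to 190 FPKM. It made up as much as 79.9% of that locus, and high and low libraries occurred in both sexes. TCONS_00018384, at the locus of ENSSSCG00000028850, ran from 0 to 313 FPKM in a locus of 1233 to 2183 FPKM. TCONS_00002833, at the locus of ENSSSCG00000005381, ran from 0 to 127 FPKM in a locus of 99.7 to 451 FPKM. TCONS_00080914 could not be placed and ran from 0 to 560 FPKM. Values at 0 are what the estimation listed and need not mean that no such transcript was present.

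**Figure D4:**
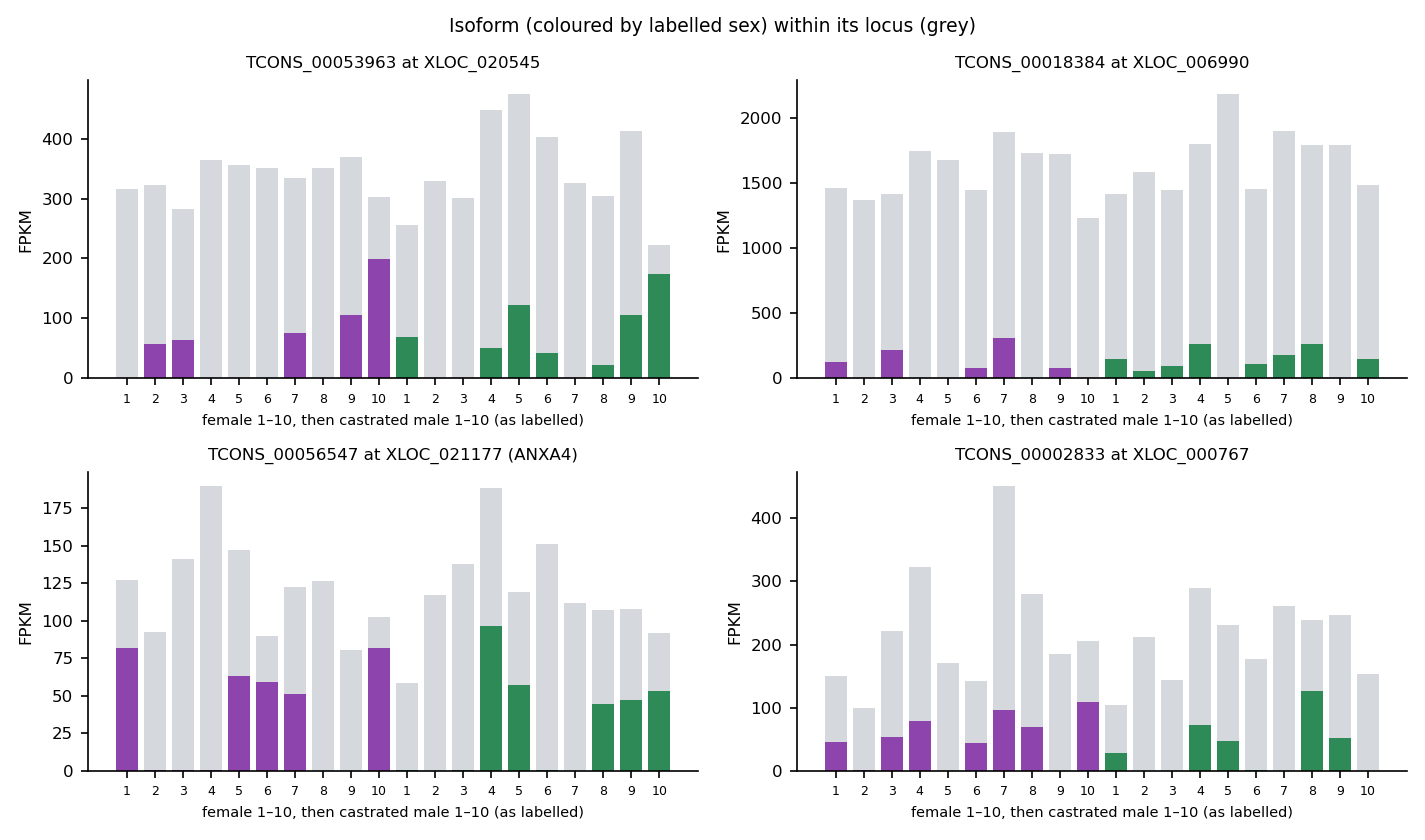
FPKM (y axis) in each library (x axis, females 1 to 10 and then castrated males 1 to 10 as labelled) of 4 isoforms without a nearest reference, coloured by labelled sex, drawn over the FPKM of their locus in grey. The isoforms are near 0 in some libraries of either sex and hold up to 79.9% of the locus in others.

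The steadiest unmatched isoforms with a mean of 10 FPKM or more had SDs of 0.12 to 0.13. TCONS_00066851, at a locus of SARNP and DNAJC14, ran from 9.04 in female 1 through a median of 10.4 to 12.7 FPKM in castrated male 5. TCONS_00024811, the only isoform at the locus of UBE2G2, a ubiquitin-conjugating enzyme, ran from 14.9 to 21.0 FPKM with a median of 16.9. TCONS_00097600 of AP1S1, an adaptor subunit of coated vesicles, ran from 13.6 to 19.5 FPKM and made up 96.0% of its locus. TCONS_00079697 at the BCL2L2 locus and TCONS_00101400 at a locus with no identifier completed the 5.

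For some sole isoforms the 2 deposited tables did not describe the same reads. If both counted the same fragments against the same library total, the share of counts divided by FPKM would return the length by which FPKM was scaled. That length and total were not checked here, so a short length equivalent alone does not show that the reads differ. Loci with FPKM and no counted read do. The length equivalent had a median of 1364 bases in matched sole isoforms, 1129 in unmatched sole isoforms at loci with an identifier and 487 in those with none. It was under 100 bases, shorter than 1 read, in 439 unmatched (16.2%) and 45 matched sole isoforms (3.58%), counts that include the loci with no reads given next. Of unmatched sole isoforms, 151 (5.59%) lay at a locus with no read counted in any library, 46 of them with a mean of 10 FPKM or more. Of matched sole isoforms, 17 (1.35%) did. TCONS_00038107 at XLOC_014726, the 8th most abundant unmatched isoform, ran from 617 in castrated male 1 through a median of 1490 to 1987 FPKM in female 3 with no read counted at its locus. For TCONS_00011639, named above at a mean of 2808 FPKM, the locus had 101.7 ± 17.7 CPM (SD, n = 20), a length equivalent of 36.2 bases. How each table treated reads of several matches or of overlapping loci is not given in the sources used here.

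Where at least 100 reads were counted on average, the tables mostly moved together. Over sole isoforms at loci with a mean of at least 100 counts, the correlation of log2 FPKM with log2 CPM across the 20 libraries had a median of 0.97 in 1153 unmatched and 0.89 in 1030 matched isoforms. The quartiles were 0.92 and 0.99 in unmatched and 0.75 and 0.95 in matched isoforms, and the lowest values 0.19 and -0.11. Sole isoforms with fewer counts were not included.

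Sex was tested by limma-trend on log2(FPKM + 0.1) over the 33316 isoforms with an FPKM of 0.5 or more in 10 libraries, as females minus castrated males. Of all isoforms 20 (0.06%) had a Benjamini-Hochberg adjusted p under 0.05. Among the unmatched isoforms 14 of 16875 did (0.083%), and among the matched 2 of 8755. In 1 direction, 6 of the unmatched isoforms were higher in females (background 0.024%) and 8 in castrated males (background 0.036%). Each of the 14 met the threshold in exactly 10 libraries, which were 9 of 1 labelled sex and the library numbered 10 of the other. They were chosen by the group in which they are high, so their number supports nothing about unmatched isoforms in general. Without the adjustment, 344 unmatched isoforms (2.04%) had p under 0.05 against 2.34% of all isoforms, and the median log2 difference was -0.01 against -0.02.

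All 6 isoforms higher in females lay at XLOC_042132, a locus with no identifier. TCONS_00106094, which made up 38.8% of it, was at 30.5 to 58.9 FPKM in females 1 to 9 and at 0 to 0.04 FPKM in castrated males 1 to 9. The library labelled female 10 was at 0.02 and the library labelled castrated male 10 at 27.9 FPKM. Apart from those 2 the sexes did not overlap. The log2 difference was 6.85 ± 1.09 (SE; limma-trend adjusted p = 0.026), and 8.49 ± 0.14 without both libraries numbered 10 and with the filter at 9 libraries (SE; limma-trend adjusted p = 2.8e-18). Those 2 libraries are set apart by their values at these same loci, so the values without them are no separate support for a sex difference. In counts the locus was at 547 to 1233 CPM in females 1 to 9 and at most 1.87 CPM in castrated males 1 to 9, with 0.41 CPM in the library labelled female 10 and 989 CPM in the library labelled castrated male 10.

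The 8 isoforms higher in castrated males lay at XLOC_042813, XLOC_042814, XLOC_042815, XLOC_042820, XLOC_042822 and XLOC_042823, all with an Ensembl identifier and no symbol. The most abundant, TCONS_00107806 at the locus of ENSSSCG00000012178, was at 73.9 to 145 FPKM in castrated males 1 to 9 and at 0 to 0.57 FPKM in females 1 to 9. The library labelled castrated male 10 was at 0 and the library labelled female 10 at 64.1 FPKM. The log2 difference was -7.27 ± 1.28 (SE; limma-trend adjusted p = 0.032), and -9.12 ± 0.39 without those 2 libraries (SE; limma-trend adjusted p = 7.7e-12). TCONS_00107798, 85.9% of the locus of ENSSSCG00000026430, was at 37.1 to 54.9 FPKM in castrated males 1 to 9 and at most 0.24 FPKM in females 1 to 9. Its log2 difference was -6.72 ± 1.14 (SE; limma-trend adjusted p = 0.029), and -8.41 ± 0.20 without those 2 libraries and with the filter at 9 libraries (SE; limma-trend adjusted p = 6.6e-16). As above, the values without those 2 libraries are no separate support for a sex difference. TCONS_00107833 at XLOC_042823 was at 4.01 to 10.01 FPKM in castrated males 1 to 9 and at most 0.03 FPKM in females 1 to 9, although no read was counted at its locus in any library.

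**Figure D5:**
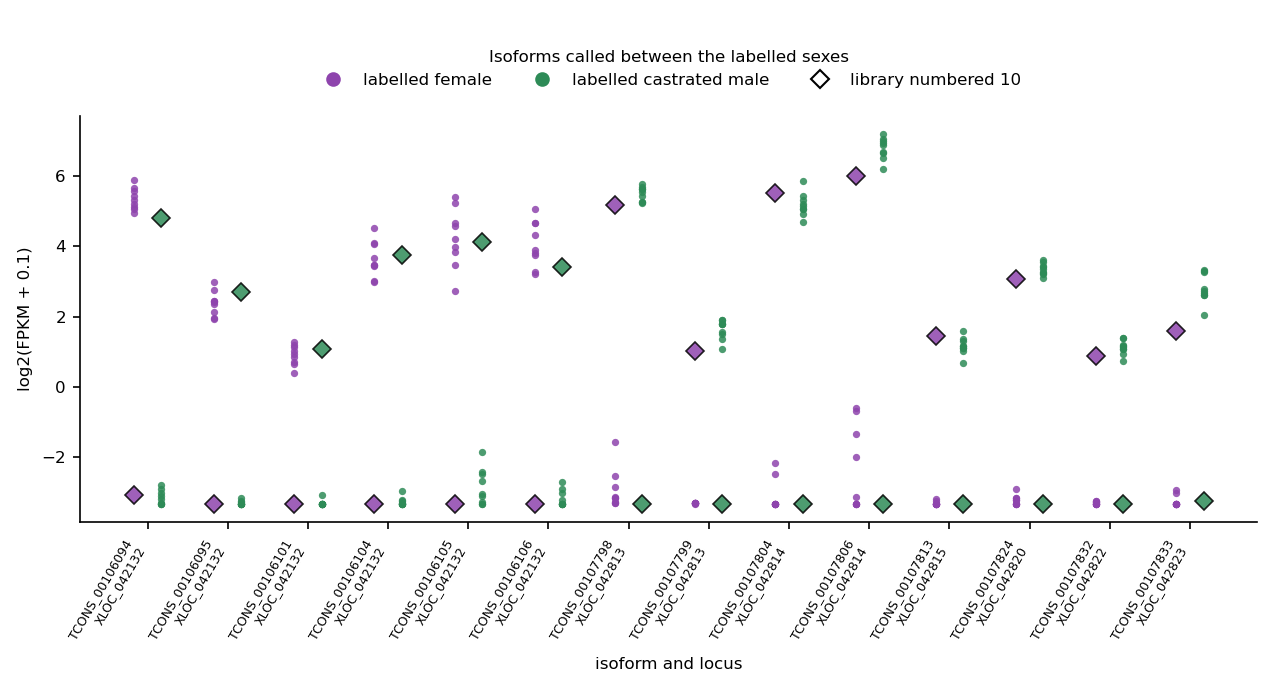
Log2(FPKM + 0.1) (y axis) in each library for the 14 isoforms without a nearest reference called between the labelled sexes (x axis, with their loci), by labelled sex; diamonds are the libraries numbered 10. In every isoform the female diamond lies with the castrated males and the castrated male diamond with the females.

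The number of calls changed with the libraries kept and with the model. Leaving out both libraries numbered 10, with the filter at 9 of 18 libraries, an alternative added after seeing the data, the same 14 unmatched isoforms were called among 26 of 33486 isoforms (0.0776%). With the filter kept at 10 libraries most of these isoforms were not tested and 1 was called. Without castrated male 1 none was called by limma-trend under either filter. With the filter kept at 10 libraries, 7 of the 14 were then tested. There 358 unmatched isoforms of 16851 and 705 of all 32752 isoforms had an unadjusted limma-trend p under 0.05. With all 20 libraries and age in the model none was called either, with 328 of 16875 and 726 of 33316. The differences themselves changed little: that of TCONS_00106094 was 6.80 ± 1.15 (SE; limma-trend adjusted p = 0.16, or 0.073 with the filter at 9 libraries) without castrated male 1. With age in the model it was 7.19 ± 1.19 (SE; limma-trend adjusted p = 0.056). On locus counts, edgeR called no locus in 21587 (0.0%), with 226 of 9066 loci of unmatched isoforms and 935 of all 21587 at an unadjusted p under 0.05. Without both libraries numbered 10 it called 18 of 21583 loci (0.0834%), 11 of them among the 9069 loci with unmatched isoforms. There XLOC_042132 had a log2 difference of 10.19 ± 0.55 (SE calculated back from the log2 difference and its test statistic; edgeR adjusted p = 1.961e-10). Neither this value nor the number of loci called is separate support for a sex difference. Values at this locus and at others among the 18 set those 2 libraries apart. DESeq2 on all 20 libraries called 5 of 23106 loci (0.0216%).

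No isoform was called with age. In the limma-trend fit of the slope per 10 days with sex in the model, 0 of 33316 isoforms (0.0%) had an adjusted p under 0.05. Without the adjustment 726 unmatched isoforms (4.30%) had p under 0.05 against 4.42% of all isoforms. Their median slope was -0.03 against -0.04 for all, and 0.02 without both libraries numbered 10. The smallest p belonged to TCONS_00005012, the only isoform of XLOC_001335, a locus with no identifier, which ran from 0.53 in the library labelled female 10 through a median of 2.02 to 3.35 FPKM in female 5. Its slope was -1.04 ± 0.21 per 10 days (SE; limma-trend adjusted p = 0.88). TCONS_00005009 at XLOC_001334, the locus numbered just before, had a slope of -0.95 ± 0.19 (SE; limma-trend adjusted p = 0.88). Upward, the smallest p was that of TCONS_00042596 of CASP2, an initiator caspase, with 0.97 ± 0.20 (SE; limma-trend adjusted p = 0.88), at 1.26 in castrated male 2, a median of 3.38 and 5.84 FPKM in female 7.

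No unmatched isoform of the listed genes was called with sex or age. With age, 11 of 12 isoforms of fat synthesis had a slope above 0 with a median of 0.50, and 14 of 14 of fat storage and breakdown with a median of 0.33, against 43.3% of all isoforms above 0. Without castrated male 1 the medians were 0.30 and 0.31. Isoforms of macrophage markers lay the other way with age, 2 of 9 above 0 with a median of -0.26, and -0.17 without castrated male 1. Their part in the values of the fat genes was not tested. With sex, 17 of 22 matrix isoforms were above 0, with a median log2 difference of 0.18, against 46.1% of all isoforms, and 1 of 9 macrophage isoforms, with a median of -0.40. Without castrated male 1, which had the highest FPKM of 6 of the 9 macrophage isoforms, the latter median was -0.20 and that of the matrix isoforms 0.11. Without both libraries numbered 10 the matrix median was 0.23, with 20 of 22 above 0. In bulk tissue, fewer cells of a type and less RNA per cell cannot be told apart, and isoforms of 1 gene share reads, so the isoforms of a list are not separate observations.

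The edge of the threshold separates isoforms that hardly differ. Just inside it, TCONS_00022742 at the PPM1M locus had a mean of 0.93 ± 0.67 FPKM, and TCONS_00034162 and TCONS_00105790 had means of 1.29 ± 0.84 and 1.01 ± 0.43 (SD, n = 20). Just outside it, TCONS_00059834, TCONS_00088722 of CEP164 and TCONS_00009212 had means of 1.27 ± 1.15, 1.002 ± 0.51 and 1.04 ± 0.45 FPKM (SD, n = 20). The first 3 reached an FPKM of 1 in 10 libraries and the last 3 in 9.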

How the data were processed

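The authors deposited raw counts for 23483 Cufflinks loci and FPKM for the same loci and for 63418 isoforms. Per the submitters' processing notes, the tools were Cufflinks 2.1.1, TopHat2 2.0.8, DESeq2 and Bowtie2 2.1.0.0, and the build was Sscrofa10.2, with no roles stated. Annotation release, counting tool and strand setting are not given there. No sequence or coordinate is printed, since no genome of that build was used here. All 20 columns of each table were mapped to an animal by its label.

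Isoforms were placed at loci by matching sums of FPKM within a relative tolerance of 0.0001 and an absolute one of 0.001. Gene symbols came from a table matched on Ensembl identifiers, which named 9360 of 12707 loci. FPKM were tested with limma 3.58.1 (limma-trend, log2(FPKM + 0.1)), counts with edgeR 4.0.16 quasi-likelihood fits and DESeq2 1.42.0 in R 4.3.3, all with Benjamini-Hochberg adjustment at 0.05. The fits and the placing were tested on simulated data. Animals are the replicates, so p-values set a difference or slope against the spread between animals.

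The text names the 10 isoforms of highest mean, the 5 of highest and of lowest SD at a mean of 10 FPKM or more, those of smallest p, those at the edge of the threshold and those of listed genes. Members and gene lists were chosen with earlier results of these data known; 1 gene of the fat synthesis list is not reported here. Alternatives changed the pseudocount, filters, weights, covariates, thresholds and libraries.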

Additional observations from a re-analysis of the deposited data

Results flagged for a closer look

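The lowest and the highest library were set against the other 9 of their labelled sex by Dixon's test for the named isoforms, the unmatched share of FPKM and the number of unmatched isoforms at an FPKM of 1 or more. Of 94 groups tested this way, 31 values stood apart. Chance gives about 1 in 20 groups when they are not chosen by their values. These include isoforms chosen by level, spread or sex difference, so the number is not read against that share. In 25 of the 31 the value apart came from a library numbered 10, and 23 belonged to the isoforms called between the sexes. No cause was tested.

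At XLOC_042132 the library labelled castrated male 10 was the high value among castrated males, at 27.9 FPKM for TCONS_00106094, 10.6 for TCONS_00106106, 13.3 for TCONS_00106104, 6.39 for TCONS_00106095, 2.01 for TCONS_00106101 and 17.3 for TCONS_00106105. The library labelled female 10 was the low value among females, at 0.019 FPKM for TCONS_00106094, 0 for TCONS_00106095 and 1.232e-06 for TCONS_00106101.

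At the loci high in castrated males the library labelled female 10 was the high value among females. Its FPKM was 2.95 for TCONS_00107833, 1.93 for TCONS_00107799, 8.37 for TCONS_00107824, 1.73 for TCONS_00107832 and 36.1 for TCONS_00107798. It was 45.9 for TCONS_00107804, 64.1 for TCONS_00107806 and 2.63 for TCONS_00107813. The library labelled castrated male 10 was the low value among castrated males, at 0 FPKM for TCONS_00107799, TCONS_00107824, TCONS_00107832, TCONS_00107798 and TCONS_00107806 and 4.096e-07 for TCONS_00107813.

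Other isoforms had a single library apart from its labelled sex. Castrated male 8 was high in TCONS_00069004, the most abundant unmatched isoform, at 8813 FPKM where the next castrated male was at 3773, and in TCONS_00072763, at 3300 where the next was at 1439. The library labelled castrated male 10 was high in TCONS_00090547, at 3526 FPKM, and the library labelled female 10 in TCONS_00061015, an isoform that could not be placed, at 10.3 FPKM. Female 7 was high in TCONS_00095104, at 3338 FPKM, and female 1 in TCONS_00080914, at 464 FPKM. Castrated male 1 was low in TCONS_00038107, at 617 FPKM, and castrated male 5 high in TCONS_00066851, at 12.7 FPKM.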

How the results depend on the processing

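No paired analysis was possible because the replicate numbers follow the order of the samples and pair no animals. Calls between the sexes over all isoforms and over unmatched isoforms were 20 and 14. They were 0 and 0 with a pseudocount of 0.01, without castrated male 1 under either filter, and with age in the model. The log2 difference of TCONS_00106094 was then 8.89, 6.80 and 7.19, against 6.85. Without both libraries numbered 10 and the filter kept at 10 libraries they were 3 and 1, since fewer isoforms were tested; the causes of the other losses were not tested. A pseudocount of 1, no filter, a filter at an FPKM of 1, array weights and a filter at 9 libraries without those numbered 10 gave 12 or 14 unmatched calls. Calls with age were 0 under all settings run, with 580 to 843 unmatched isoforms at an unadjusted p under 0.05. Loci called on counts were 0, with 935 at an unadjusted p under 0.05, but 18 without the libraries numbered 10 and 5 by DESeq2; no filter and upper-quartile factors gave 0. None of the 14 isoforms called with sex and the 10 named for age changed sign under any setting in which it was tested. Isoforms of listed genes did: with age, 4 of 8 fibroblast isoforms were above 0 but 1 of 8 without castrated male 1, 9 and 5 of 22 matrix isoforms, and 1 of 2 isoforms of adipocyte factors but 2 of 2 without the libraries numbered 10.

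The thresholds moved the descriptions. At an FPKM of 5 in 10 libraries there were 5700 unmatched isoforms, with a median of 10.8 FPKM, a median SD of 0.45 and 24.6% of FPKM, and at an FPKM of 1 in all 20 libraries 8477, 6.16 FPKM, 0.40 and 24.3%. At an FPKM of 0.5 in 10 libraries the median FPKM was 1.97 and the median SD 0.59. The median SD was 0.40 with a pseudocount of 1, 0.53 without castrated male 1 and 0.54 with no sex means removed, and stayed above that of matched isoforms in each of these (0.34, 0.40 and 0.41). Weighted to the FPKM classes of matched isoforms the medians were 0.50 and 0.43. For sole isoforms with a mean of at least 10 counted reads, weighted to the count classes of matched sole isoforms, they were 0.35 and 0.33. This weighting was added after seeing the data. The unmatched share of FPKM was 36.5% without the 10 most abundant isoforms of each class and 39.98% without mitochondrially encoded loci, the latter added after seeing the data. Of unmatched isoforms alone at their locus, 57.3% had a mean under 100 counts; what depth contributes to their values was not tested.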

Other observations

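Ribosomal protein genes, whose products build the ribosome, also carried abundant unmatched isoforms. Of 35 genes with symbols starting RPL or RPS, 8 are ribosomal S6 kinases and not ribosomal proteins. Of the other 27 genes, 14 had unmatched isoforms, 27 in all, and these held over 50% of the FPKM of 6 genes. RPS3, of the small subunit, had 2 unmatched isoforms of similar level, TCONS_00088132 at 1029 ± 271 and TCONS_00088133 at 1013 ± 203 FPKM (SD, n = 20), which made up 40.9 and 40.2% of the locus. RPL38, of the large subunit, had 94.8% in TCONS_00016727, at 738 in the library labelled female 10, a median of 1015 and 1333 FPKM in castrated male 5. RPS16 had 86.4%, from 84.9 to 89.3% between libraries. RPL4 had 10.8%, from 0 in castrated male 3 to 39.7% in female 7, and RPS28 2.47%. None of these isoforms was called with sex or age.

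Some libraries held more than an even share of the extreme values. The library labelled female 10 had the lowest FPKM of 14.1% of unmatched isoforms, the library labelled castrated male 10 of 12.9% and female 7 of 10.5%, where an even share is 5%. Matched isoforms showed the same, with 13.5% in the library labelled female 10 and 15.3% in the library labelled castrated male 10. Ties went to the first library in table order. Female 7 had the highest FPKM of 16.1% of unmatched isoforms and of 7.41% of matched isoforms, and the lowest of 18.2% of matched isoforms. Unmatched isoforms under an FPKM of 0.1 numbered 964 in the library labelled female 10 and 972 in the library labelled castrated male 10, and 247 to 585 in the other 18 libraries. The smallest total of counts, 25754778, was in the former of these 2 libraries. Whether depth plays a part in these values was not tested.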
